A study of Mus musculus with 661 samples.

Results

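The 10 genes described here encode the 5 subunits of the transcription factor NF-κB (*Nfkb1*, *Nfkb2*, *Rela*, *Relb* and *Rel*) and 5 of its inhibitors and regulators (*Nfkbia*, *Nfkbib*, *Nfkbie*, *Nfkbiz* and *Tnfaip3*). The latter are called inhibitors below for short, although the product of *Nfkbiz* is a nuclear regulator. The 10 genes were chosen by gene symbol from the 45808 genes of a single-cell count table, and all 10 were found. NF-κB dimers are held in the cytoplasm by IκB proteins until inflammatory receptors activate a kinase complex that marks IκB for destruction, after which the dimers enter the nucleus. Several inhibitors are themselves NF-κB target genes, so that their transcripts are commonly read as a sign of pathway activity. In bone marrow stroma the pathway is known for responses to IL-1 and TNF.

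The study sorted single stromal cells from C57BL/6 mice of both sexes into wells and sequenced them with a full-length protocol modified from Smart-Seq2, without molecular identifiers. Mice counted as young between 6 and 12 weeks of age and as old from 18 months, usually at about 24 months. All sorted cells were negative for Ter119 and CD45. Endosteal cells were released with collagenase for longer than central marrow cells, so that location and digestion cannot be told apart. MSC-S were CD31-negative, Sca-1-positive, CD51-positive endosteal cells. From the endosteum came also the osteoprogenitors mOPr, which carry PDGFRα but neither Sca-1 nor LepR, and OPr, which lack PDGFRα as well. MSC-L were CD51-positive, PDGFRα-positive, LepR-positive cells of the central marrow. AEC were defined as CD31-positive endosteal endothelial cells with high Sca-1 and low CD105, and SEC as marrow endothelial cells with low Sca-1 and high CD105. For the single cells the paper also lists these sorts as endosteal and marrow endothelial cells. It describes the endosteal ones as dominated by AEC and the marrow ones, by index sorting, as mostly SEC. AEC and SEC below can therefore hold other endothelial cells.

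Of 661 cells, 8 with *Il1b* at 1000 CPM (counts per 1000000 nuclear gene counts) or more were dropped and 653 kept. All 8 were old OPr of cluster M5 in the clustering that the authors made by iterative guide-gene selection (ICGS). Their *Il1b* ran from 1229 to 29523 CPM, and the highest kept cell stood at 61.5 CPM. The kept cells were 84 young and 82 old AEC, 70 and 71 SEC, 59 and 59 MSC-S, 53 and 58 MSC-L, 44 and 21 OPr, and 26 and 26 mOPr. The median depth of a group lay between 302201 nuclear counts per cell in old SEC and 775926 in old OPr. The labels name no mouse, so each population and age is 1 sample. No difference below was tested, none has a replicate check, and intervals (95%) cover counting error only.

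The sorted names were set against marker genes. Summed over 9 mesenchymal markers, the mesenchymal populations held between 14761 CPM (young OPr, most abundant *Cxcl12*) and 56996 CPM (young MSC-L), and the endothelial populations between 2563 and 6587 CPM. For 9 endothelial markers, AEC and SEC held between 7861 and 9089 CPM, with *Cldn5* most abundant, and the mesenchymal populations at most 115 CPM. In mOPr some defining endothelial genes were at 0, namely *Tie1* and *Emcn* in young and *Cdh5*, *Tek* and *Tie1* in old cells. Over 15 hematopoietic markers the kept groups held between 2.67 CPM (young mOPr) and 389 CPM (old SEC, most abundant *Lyz2*), against 42431 CPM in the 8 dropped cells. The part of such RNA in the results was not tested.

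By the library number in its label, each cell belongs to 1 of 3 ranges. MSC and OPr populations lie in ranges 1 and 2, AEC in all 3 and SEC in range 3 alone. Values inside a range were computed where it held at least 5 cells of each age, and stand beside most ratios below.

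Among the subunits, the precursor gene *Nfkb1*, which gives p50, was highest in old MSC-S at 348 CPM (342 to 354) and lowest in old mOPr at 92.4 CPM (87.2 to 97.9). Young cells stood at 92.6 CPM in MSC-L, 184 in MSC-S, 135 in OPr, 172 in mOPr, 206 in AEC and 311 in SEC. Old cells stood at 112, 348, 247, 92.4, 204 and 247 CPM in the same order. The highest places were thus held by old MSC-S and by SEC of both ages, and with the mean of cell CPM young SEC came first.

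Single cells set part of this order. In old OPr 1 cell held 62.7% of all *Nfkb1* counts, and once that cell was left out the old level was 97.7 CPM. In old MSC-S the 10 cells of cluster M9, all from old mice and 9 of them in range 2, stood at 729 CPM, with a lowest, median and highest cell of 118, 574 and 2057 CPM. The other 49 old MSC-S stood at 244 CPM. *Nfkb1* is not among the genes by which the clusters were drawn.

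*Nfkb2* encodes p100, which is processed to p52 in the noncanonical pathway. In young and old cells *Nfkb2* stood at 51.4 and 61.6 CPM in MSC-L, 72.1 and 92.4 in MSC-S, 67.7 and 143 in OPr, 74.04 and 128 in mOPr, 103 and 71.6 in AEC and 124 and 160.4 in SEC. It was thus highest in old SEC and lowest in young MSC-L. The lowest, median and highest cell were 0, 46.7 and 1075 CPM in old SEC and 0, 1.91 and 725 CPM in young MSC-L.

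*Relb* encodes the usual partner of p52. Levels of *Relb* in young and old cells were 36.4 and 51.3 CPM in MSC-L, 45.5 and 42.3 in MSC-S, 37.4 and 50.2 in OPr, 37.9 and 28.2 in mOPr, 61.7 and 67.04 in AEC and 75.5 and 40.6 in SEC. It was highest in young SEC and lowest in old mOPr. In young mOPr 1 cell held 70.9% of the *Relb* counts. When the highest cell of each age was left out, mOPr stood at 11.7 CPM in young and 19.5 in old, and the log2 ratio of old to young turned from -0.41 to 0.69.

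*Rela* encodes the main activating subunit, p65. For young and old cells its levels were 93.7 and 138 CPM in MSC-L, 219.5 and 237 in MSC-S, 131 and 151 in OPr, 213 and 189.5 in mOPr, 137 and 239 in AEC and 157 and 144 in SEC. It varied least of the 10 genes, by 2.54 times between old AEC and young MSC-L. The lowest, median and highest cell were 0, 156 and 1206 CPM in old AEC and 0, 44.8 and 870.3 CPM in young AEC.

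*Rel* encodes the subunit c-Rel. In young and old cells *Rel* stood at 15.0 and 30.1 CPM in MSC-L, 57.4 and 74.2 in MSC-S, 109 and 37.4 in OPr, 47.9 and 51.9 in mOPr, 158 and 165 in AEC and 42.6 and 39.7 in SEC. The highest level was 11.1 times the lowest. In single cells the lowest, median and highest values were 0, 63.3 and 892 CPM in old AEC and 0, 22.5 and 1539 CPM in young OPr. *Rel* and *Nfkbia* were among the genes that drew the endothelial clusters, so that their order over those clusters is no independent result.

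Among the inhibitors, *Nfkbia* encodes IκBα, which returns NF-κB to the cytoplasm. It was highest in AEC, at 1774 CPM (1760 to 1788) in young and 2003 CPM (1988 to 2018) in old, and lowest in MSC-L, at 223 CPM (217 to 229) and 200.3 CPM (194 to 207). MSC-S stood at 972 and 1117 CPM, SEC at 913 and 876, mOPr at 882 and 587 and OPr at 326 and 524 CPM. The lowest, median and highest cell were 0, 992 and 10544 CPM in young AEC, 1.90, 1433 and 7908 CPM in old AEC, and 0, 118 and 945 CPM in young MSC-L.

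**Figure D1:**
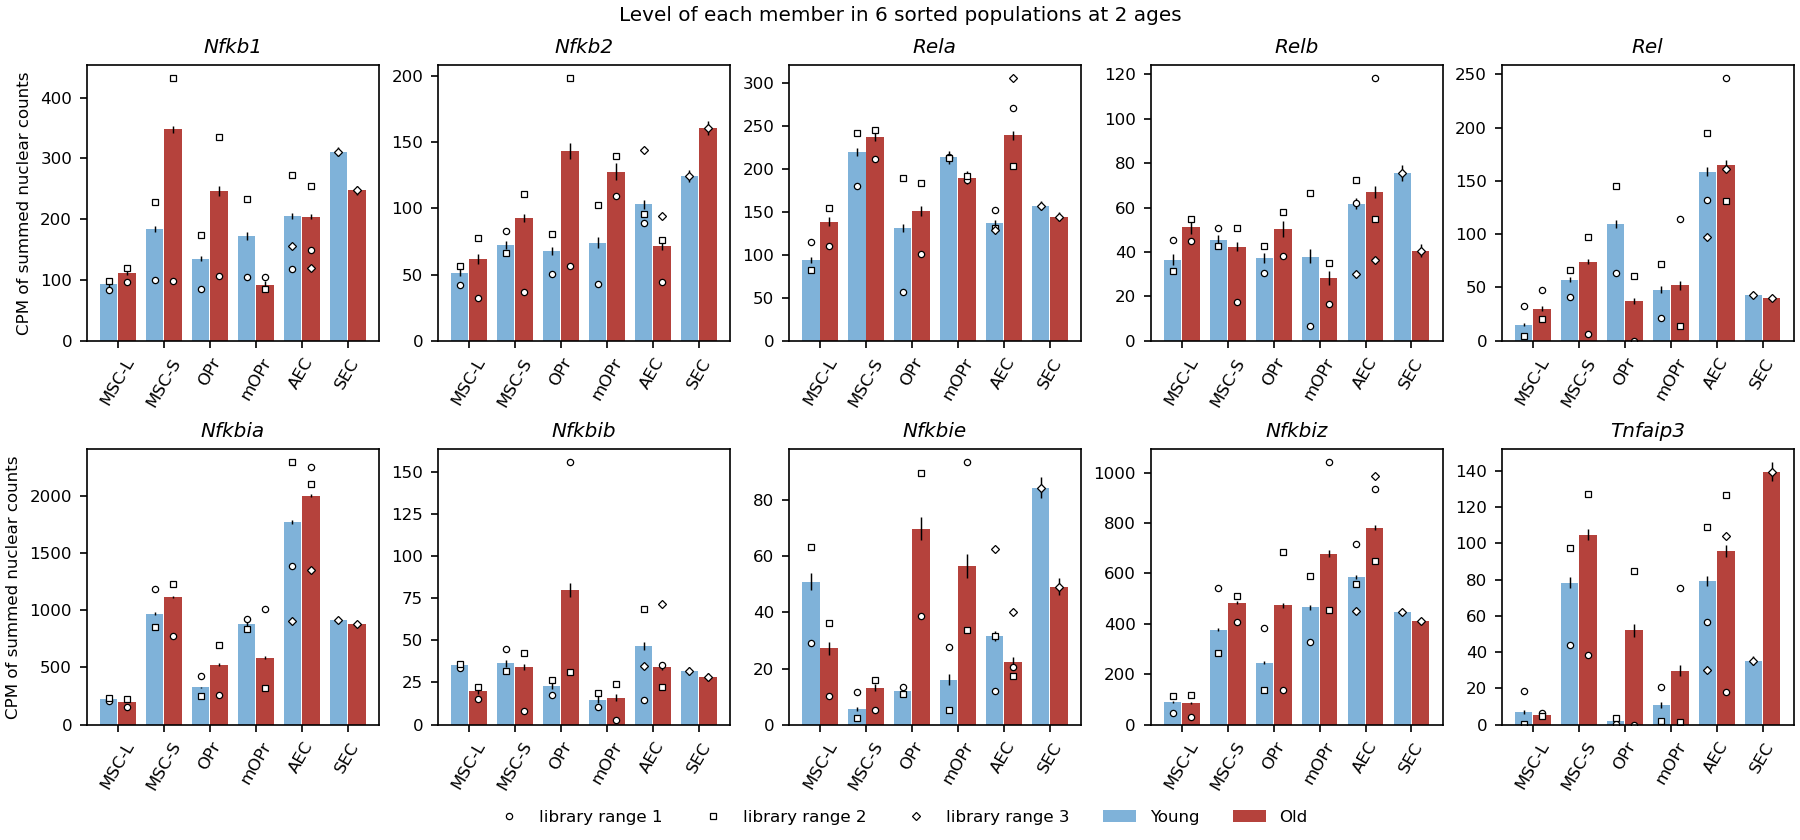
Level of each of the 10 genes (CPM of summed nuclear counts, y axis) in 6 sorted populations (x axis), with bars for young and old, error bars for the exact 95% Poisson interval and open symbols for the level inside each library-number range. *Nfkbia* reaches 2003 CPM in old AEC and 200.3 CPM in old MSC-L, and the symbols of 1 population often lie further apart than the bars of the ages.

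*Nfkbiz* encodes IκBζ, an inducible nuclear regulator. *Nfkbiz* levels in young and old cells were 89.3 and 86.8 CPM in MSC-L, 377 and 484 in MSC-S, 245 and 473 in OPr, 465 and 679 in mOPr, 584 and 781 in AEC and 447 and 413 in SEC. Its highest and lowest groups were those of *Nfkbia*, old AEC and old MSC-L. In old OPr 1 cell held 52.7% of the *Nfkbiz* counts and the median cell stood at 5.57 CPM. When the highest cell of each age was left out, OPr stood at 185 and 235 CPM (0.34 in place of 0.95).

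*Tnfaip3* encodes the ubiquitin-editing enzyme A20. Its levels, young and old, were 6.93 and 5.23 CPM in MSC-L, 78.4 and 105 in MSC-S, 2.25 and 51.9 in OPr, 10.8 and 29.6 in mOPr, 79.2 and 95.7 in AEC and 35.3 and 139.6 in SEC. The median cell was at 0 in MSC-L, OPr, mOPr, AEC and SEC of both ages. A count was nevertheless seen in 31 of 84 young and 37 of 82 old AEC. The highest cell stood at 4318 CPM in old SEC and 66.1 CPM in young OPr. One cell held most of the counts in young MSC-L (63.9%), young MSC-S (53.1%), old OPr (56.6%), young and old mOPr (74.5% and 67.03%) and old SEC (67.8%).

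*Nfkbib* encodes IκBβ, which is resynthesized more slowly than IκBα. By age, young then old, it stood at 35.3 and 20.003 CPM in MSC-L, 36.4 and 33.9 in MSC-S, 22.8 and 79.8 in OPr, 14.7 and 16.0 in mOPr, 46.5 and 34.4 in AEC and 32.01 and 28.1 in SEC. The highest cell of old OPr stood at 505 CPM. In old mOPr 1 cell held 84.5% of the *Nfkbib* counts, and without it the level was 2.63 CPM.

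*Nfkbie* encodes IκBε. In young and old cells *Nfkbie* stood at 50.9 and 27.1 CPM in MSC-L, 5.59 and 13.1 in MSC-S, 12.0 and 69.9 in OPr, 16.0 and 56.5 in mOPr, 31.5 and 22.3 in AEC and 84.4 and 49.2 in SEC. The median cell was at 0 in all 12 groups. The highest cell stood at 965 CPM in young SEC and 709 CPM in old OPr.

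Levels of different genes were compared per length, as CPM per kb of merged exons. Merged exons take in every annotated exon of a gene, so that a transcript can be shorter than the length used. *Nfkb1* had 12061 such bases. On that scale *Nfkbia* was the highest member in all 12 groups and made up between 50.7% (old MSC-L) and 79.7% (young AEC) of the 10 members together. The 5 inhibitors held 1261 and the 5 subunits 121 CPM per kb in young AEC. In old MSC-L these were 161 and 85.0, so that the ratio of inhibitors to subunits was 10.4 in young AEC and 1.89 in old MSC-L.

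Populations were set against each other inside shared library ranges. With AEC over MSC-L in ranges 1 and 2, *Nfkbia* had a log2 ratio of 3.14 in young (2.74 in range 1 and 3.30 in range 2) and 3.42 in old (3.86 and 3.22). *Tnfaip3* had 3.53 in young (1.55 and 6.36) and 3.93 in old (1.36 and 4.51), and *Rel* 3.44 (1.97 and 5.08) and 2.43 (2.35 and 2.62). For *Tnfaip3* and young *Rel* the ranges thus differed greatly in size and not in direction. In range 2 young MSC-L held 5 counts of *Tnfaip3*, and over both ranges 63.9% of their counts lay in 1 cell. The size of the young *Tnfaip3* ratios is uncertain to that extent. *Nfkbiz* had 2.77 (3.92 and 2.29) and 3.07 (4.89 and 2.46). Counting members past 2-fold, 5 were higher and 1 lower in young, where 22.9% and 25.2% of all features tested were. In old cells 4 were higher and 0 lower, against 23% and 28.1%. The median over the 10 members was 1.06 in young and 0.84 in old, and over all features -0.05 and -0.10.

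With MSC-S over MSC-L, also in ranges 1 and 2, *Nfkbia* had a log2 ratio of 2.12 in young (2.52 in range 1 and 1.88 in range 2) and 2.47 in old (2.32 and 2.45). *Tnfaip3* had 3.32 (1.19 and 6.19) and 4.09 (2.41 and 4.52), where 6.19 rests on the same 5 counts in young MSC-L. *Nfkbie* went the other way, at -2.98 (-1.23 and -4.31) and -0.99 (-0.90 and -1.15). In young cells 5 members were past 2-fold higher in MSC-S and 1 lower, beside 16.8% and 28.8% of features, and in old cells 5 and 0, beside 16.2% and 32.8%. Among the old 5, *Rel* had 1.28 with -2.77 in range 1 and 2.18 in range 2, and *Nfkb1* had 1.62 with 0.01 and 1.83. Immediate early genes can be induced while cells are released and sorted. Their sum over 10 genes was 3932 CPM in young and 3281 CPM in old MSC-L and between 17026 and 33286 CPM in the other groups, with *Fos* most abundant in each. Its part in these differences was not tested.

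AEC and SEC share only range 3, where *Nfkbia* stood at 908 CPM in young AEC and 913 in young SEC. In old cells it was 1353 and 876 CPM. *Rel* had a log2 ratio of 1.17 in young and 2.00 in old, and *Nfkb1* of -0.99 and -1.04. In young cells 1 member was past 2-fold higher in AEC and 1 lower, where 17.3% and 24.9% of features were. In old cells 4 and 1 were, where 15.3% and 27.6% of features were.

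Each of the 10 members had at least 100 counts over both ages together, and a count in at least 5 cells, in all 6 populations, so that the filter removed none. Old over young ratios are log2 with a pseudocount of 1 CPM. In MSC-L the median over the members was 0.11, beside 0.01 over all features, and 0 members were past 2-fold in either direction, where 13.9% of features were higher and 11.5% lower in old. In MSC-S the median was 0.36 beside -0.06, with 1 member higher and 0 lower, against 8.65% and 11.1%. In OPr it was 0.90 beside 0.22, with 4 higher and 1 lower, against 26.4% and 18.4%. There 1 old cell weighs in several members, as given below.

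In mOPr the median was 0.12 beside 0.11, with 2 members higher and 0 lower, where 24.7% and 19.8% of features were. In AEC it was 0.09 beside -0.03, with 0 and 0, where 9.33% and 11.7% were. In SEC it was -0.12 beside 0.05, with 1 higher and 0 lower, where 13.1% and 7.56% were. A share near that of the background is not a result about the members. Size factors moved the median of all features from 0.22 to -0.02 in OPr and from 0.11 to -0.01 in mOPr.

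**Figure D2:**
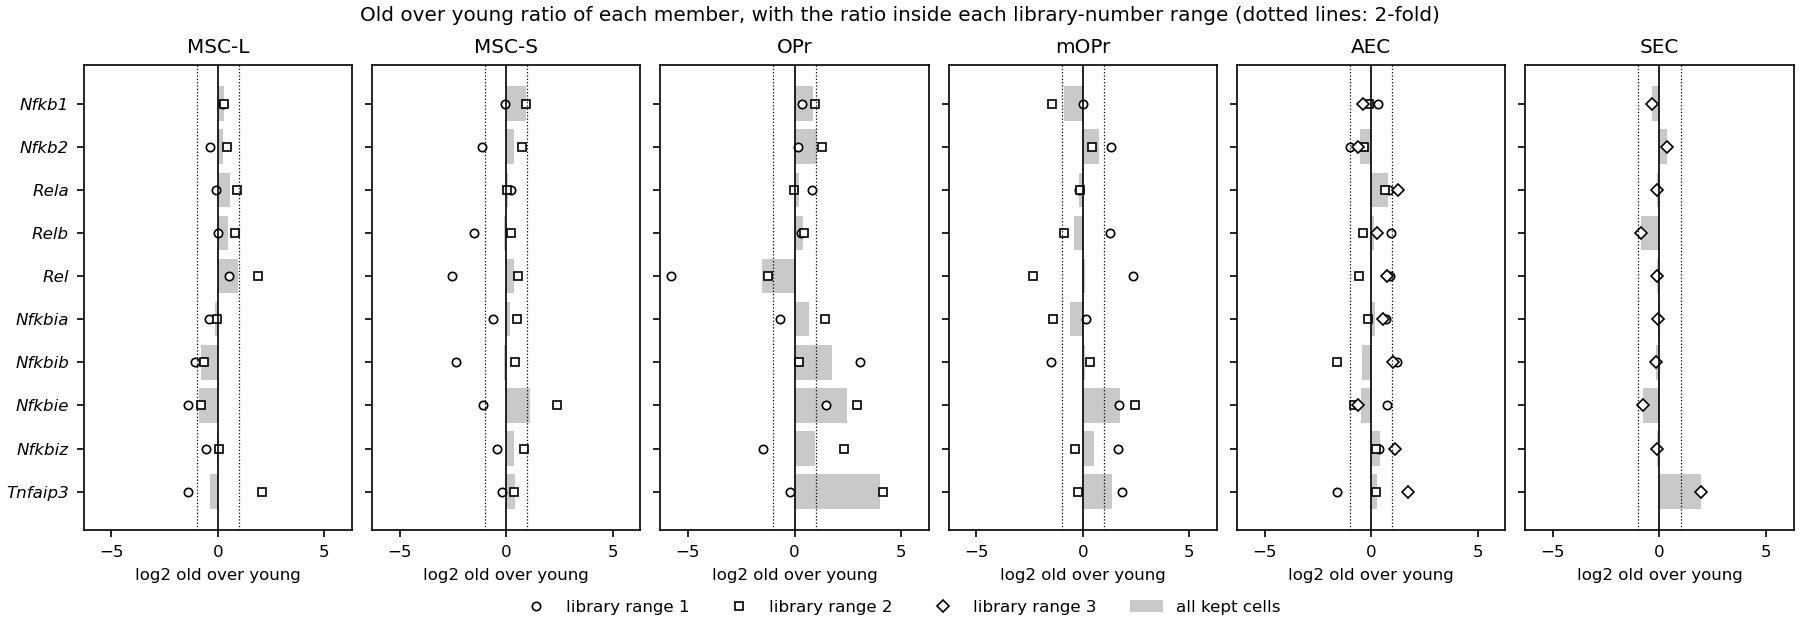
Log2 old over young ratio (x axis) of each of the 10 genes (y axis) in each sorted population, with bars for all kept cells, open symbols for each library-number range alone and dotted lines at 2-fold. In OPr, *Tnfaip3* lies at 4.03 over all cells, -0.21 in range 1 and 4.14 in range 2.

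The clusters that make up OPr and mOPr differ between the ages, and so do those of the other populations, given below. Clusters M1 and M2, which hold 51 of 53 young and 56 of 58 old MSC-L, held 3 of 44 young and 10 of 21 kept old OPr, and 2 of 26 young and 14 of 26 old mOPr. The other old mOPr were 12 cells of M5, whereas young mOPr had 7 cells in M5 and 7 in M15. Ratios between ages in OPr and mOPr therefore compare different mixtures of clusters. In SEC, cluster E7 held 59 of 70 young and 44 of 71 old cells, and E6 held 2 and 12. In MSC-L, M2 held 12 of 53 young and 23 of 58 old cells. In AEC, E3 held 24 of 84 young and 34 of 82 old cells, and in MSC-S all 10 cells of M9 were old. Ratios in these populations compare different mixtures too. Values without M1 and M2, an alternative chosen after seeing the data, compare 41 young with 11 old OPr and 24 young with 12 old mOPr.

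In OPr, *Nfkbie* stood at 12.0 CPM in young and 69.9 in old (log2 ratio 2.44), with 1.46 in range 1 and 2.93 in range 2. *Nfkb2* stood at 67.7 and 143 CPM (1.07), with 0.16 and 1.28. *Nfkbib* stood at 22.8 and 79.8 CPM (1.76), with 3.06 and 0.22. These 3 genes were higher in old cells of both ranges, but of the 21 old cells 1 held 58.3% of the *Nfkbie* counts. By its depth the same cell held 51.2% of the *Nfkb2* counts. Without the highest cell of each age the ratios were 1.66 for *Nfkbie*, 0.33 for *Nfkb2* and 1.49 for *Nfkbib*. Without clusters M1 and M2, *Nfkbib* stood at 19.7 and 20.6 CPM (0.06), *Nfkb2* had a ratio of 1.86 and *Nfkbie* of 3.80, with 74.3% of the old *Nfkbie* counts in 1 cell.

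The other 2 members past 2-fold in OPr were *Tnfaip3*, at 2.25 CPM in young and 51.9 in old, and *Rel*, at 109 and 37.4 CPM. The ratio of *Tnfaip3* was 4.03 over all cells, -0.21 in range 1 and 4.14 in range 2. Of the old counts of *Tnfaip3* 56.6% lay in 1 cell, by its depth the cell highest in *Nfkbie* and *Nfkb2*. Once the highest cell of each age was left out, the old level was 23.9 CPM and the ratio 3.41. In range 1 the ratio of *Tnfaip3* rests on 2 counts in young and 0 in old cells, both under the floor of 3 counts, so that its sign there has no weight. That of *Rel* was -1.52, with -5.79 in range 1, where the old cells held 1 count, and -1.24 in range 2. *Tnfaip3* reached 10 CPM in 11.4% (3.79 to 24.6%) of young and 28.6% (11.3 to 52.2%) of old OPr. Without M1 and M2 the ratios were 4.74 for *Tnfaip3*, with 79.03% of the old counts in 1 cell, and -0.97 for *Rel*. *Cxcl12*, the most abundant mesenchymal marker of OPr, stood at 4525 CPM in young and 26290.1 CPM in old, and its relation to the ratios was not tested.

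Without M1 and M2, 6 members were past 2-fold higher in old OPr and 0 lower, beside 23.7% and 28.1% of all features there. Besides *Nfkb2*, *Nfkbie* and *Tnfaip3* these were *Nfkb1* (1.76), *Nfkbia* (1.29) and *Nfkbiz* (2.36). Of 11 old cells the highest held 77.3% of the *Nfkb1* counts, and the highest in *Nfkbiz* held 65.8%. For each of the 6 at least 50.2% of the old counts lay in 1 cell. By its depth this was the same cell for *Nfkb1*, *Nfkb2*, *Nfkbie* and *Tnfaip3*, and another for both *Nfkbia* and *Nfkbiz*. The 6 members therefore rest on few cells and are not separate cases.

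With the 8 dropped cells put back, *Rel* had a log2 ratio of 1.30 in OPr in place of -1.52, *Relb* 2.17 in place of 0.42, *Nfkbie* 4.44 in place of 2.44 and *Nfkb1* 1.38 in place of 0.86. They held 89.7% of the *Rel* counts and 81.5% of the *Nfkbie* counts of all old OPr. With them 8 members were past 2-fold higher in old OPr, beside 25.6% of all features, and without them 4, beside 26.4%.

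In mOPr, *Nfkbie* stood at 16.0 CPM in young and 56.5 in old (log2 ratio 1.76), with 1.72 in range 1 and 2.47 in range 2. *Tnfaip3* stood at 10.8 and 29.6 CPM (1.38), with 1.83 and -0.23, and 74.5% of the young and 67.03% of the old counts lay in 1 cell each. Without the highest cell of each age it stood at 2.84 and 10.02 CPM (1.52). In range 2 its ratio rests on 14 young and 11 old counts. *Nfkbia* had a ratio of -0.59, with 0.13 and -1.38. *Nfkb2* stood at 74.04 and 128 CPM (0.78, with 1.33 and 0.44). Without clusters M1 and M2 the ratio of *Nfkbie* was reversed, at 15.6 CPM in young and 3.04 in old (-2.03), where 1 of 12 old cells held all old counts. The ratio of *Nfkbiz* was then 1.31, in place of 0.54 over all kept cells, and those of *Tnfaip3*, *Nfkb2* and *Nfkbia* were 0.44, 0.24 and 0.11. Of the old *Nfkbie* counts 97.4% lay in 8 of the 14 cells of M1 and M2, and 46.4% in 1 of them, at 952 CPM. Without the highest cell of each age mOPr stood at 9.17 and 31.1 CPM (1.66).

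In MSC-L no member passed 2-fold, and 5 kept one sign in both ranges. The share of all features that kept one sign was not computed, so that this count is not a result about the members. *Rel* stood at 15.0 CPM in young and 30.1 in old (0.96, with 0.51 in range 1 and 1.90 in range 2). *Nfkb1* had a ratio of 0.28 (0.23 and 0.30). *Nfkbie* stood at 50.9 and 27.1 CPM (-0.88, with -1.40 and -0.78), *Nfkbib* at 35.3 and 20.003 CPM (-0.79, with -1.08 and -0.66), and *Nfkbia* had -0.15 (-0.41 and -0.04).

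In MSC-S the member past 2-fold was *Nfkbie*, at 5.59 CPM in young and 13.1 in old, with a log2 ratio of 1.10 over all cells, -1.07 in range 1 and 2.38 in range 2. *Nfkb1* had a ratio of 0.92, with -0.03 and 0.91, and 0.41 without the cells of cluster M9, an alternative chosen after seeing the data. *Rela*, at 0.11, had 0.23 and 0.02. The other 7 members had opposite signs in the 2 ranges, and the share of all features that did so was not computed. Over all 10 members the median was -0.84 in range 1.

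In AEC, 3 members kept one sign in all 3 ranges, and the share of all features that did so was not computed. *Rela* stood at 137 CPM in young and 239 in old (0.80, with 0.82, 0.63 and 1.24). It reached 10 CPM in 64.3% of young and 85.4% of old AEC. *Nfkbiz* had 0.42 (0.39, 0.21 and 1.13) and *Nfkb2* -0.52 (-1.002, -0.32 and -0.61). *Nfkbia*, the most abundant member, had 0.18 (0.70, -0.13 and 0.57).

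In SEC, all from range 3, *Tnfaip3* stood at 35.3 CPM in young and 140 in old (log2 ratio 1.96). A single old cell of cluster E6 at 4318 CPM held 67.8% of the old counts, and it carried 10 of the 15 hematopoietic markers, the most of any kept cell. When cells were dropped by 7 or more of these markers in place of *Il1b*, the ratio was 0.37 and 0 members were past 2-fold higher, beside 12.2% of all features. That drop leaves in the highest young cell, which held 46.2% of the young counts. Without the highest cell of each age *Tnfaip3* stood at 19.4 and 45.9 CPM (1.20). *Relb* stood at 75.5 and 40.6 CPM (-0.88) and *Nfkbie* at 84.4 and 49.2 CPM (-0.77). The SEC of the 2 ages differ in clusters. E7 held 59 of 70 young and 44 of 71 old cells, and E6 held 2 and 12. Of the 19 clusters ranked, *Tnfaip3* was highest in E6, at 409 CPM. The old cell at 4318 CPM held 60.97% of the E6 counts, and the median E6 cell was at 0. By the mean of cell CPM cluster M8 came first, at 392 CPM against 272 CPM in E6. In M8 80.65% of the counts lay in 1 cell. Cells with 3 or more hematopoietic markers numbered 3 in young and 9 in old SEC. The part of these differences in the ratios was not tested.

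**Figure D3:**
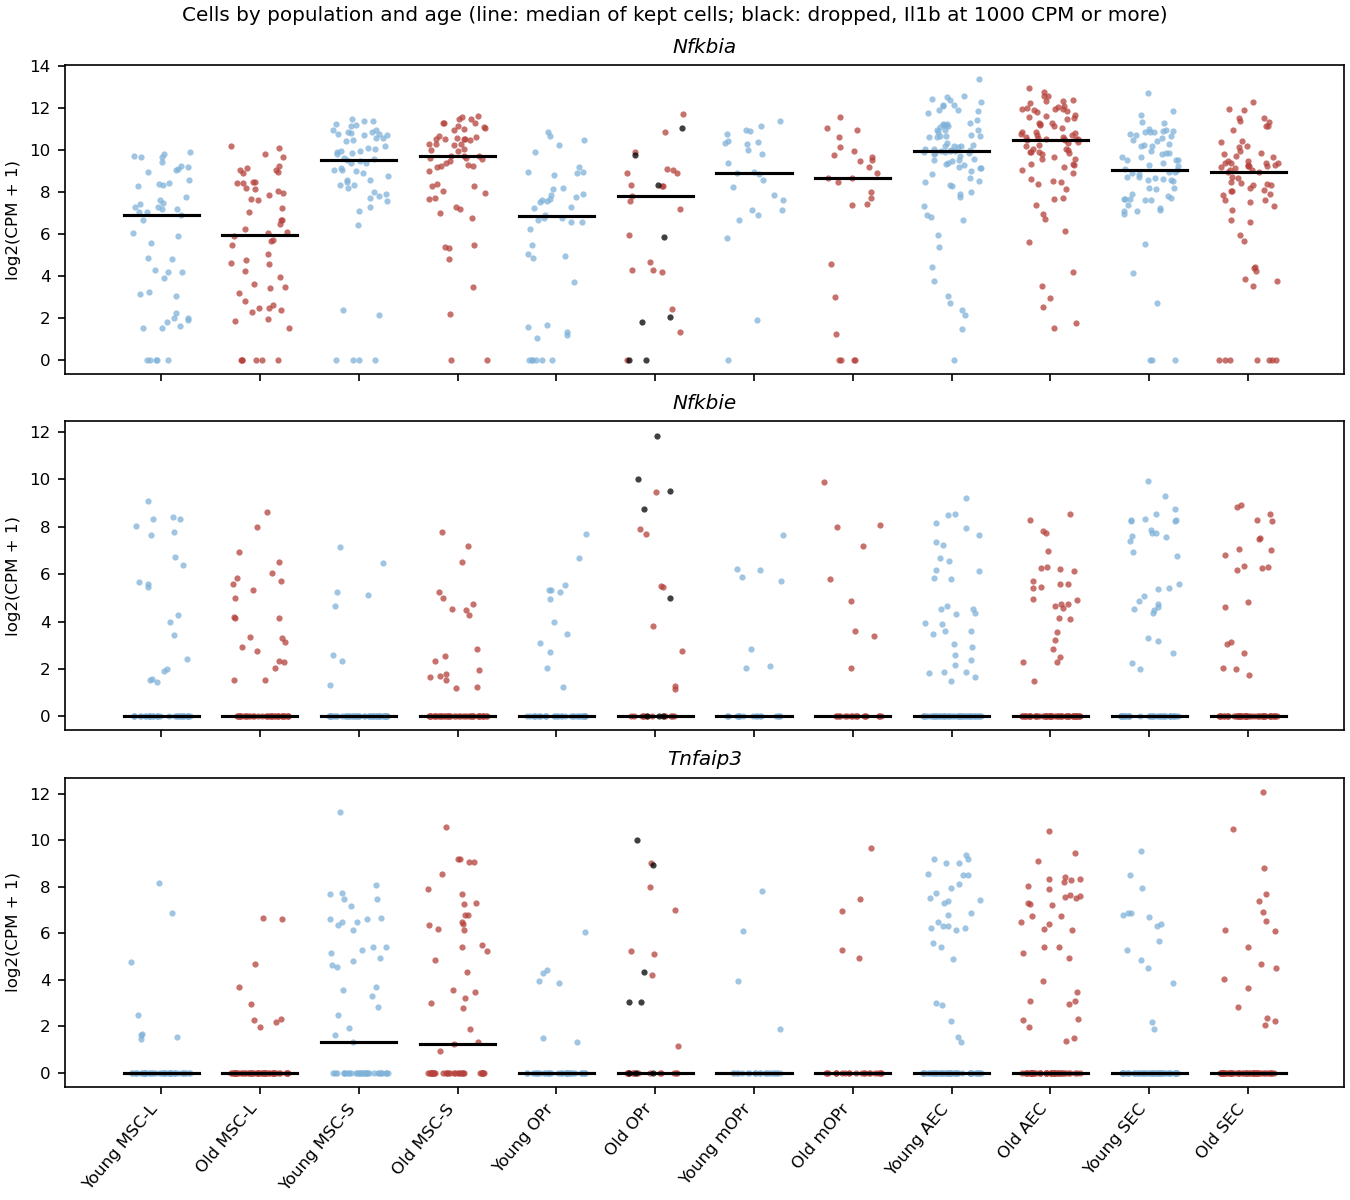
Each point is 1 cell, by population and age (x axis), with log2(CPM + 1) of *Nfkbia*, *Nfkbie* and *Tnfaip3* on the y axis, a line at the median of the kept cells and black points for the 8 dropped cells. The medians of *Nfkbie* lie at 0 in all 12 groups.

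Most cells carried several members. The median number of the 10 at 10 CPM or more was 6 in MSC-S and AEC of both ages and 4 in MSC-L of both ages. *Nfkbia* reached 10 CPM in 69.8% (55.7 to 81.7%) of young MSC-L and 95.1% (88.0 to 98.7%) of old AEC. *Nfkbie* did so in 8.47% of young MSC-S and 38.6% of young SEC. With every cell thinned to 100000 counts, and shallower cells left out, a count of *Nfkbie* was seen in 6.78% and 44.3%, and of *Nfkbia* in 75.5% and 96.3%.

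Across cells the members varied together only weakly. Pearson's r of log2(CPM + 1) was computed in 23 sets of at least 10 cells that share population, age and range. The median over sets ran from 0.0144 to 0.460 over the 45 pairs of members. The highest pair was *Nfkbia* with *Nfkbiz* (0.460, positive in 21 sets), followed by *Nfkb2* with *Nfkbiz* (0.320). *Nfkbiz* had a median r of 0.642 with the sum of immediate early genes (positive in 23 sets), *Nfkbia* 0.427 and *Rela* 0.0443. The cells of a set share a library-number range and differ in depth, and no test was made.

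Over the 12 groups, the genes most like *Nfkbia* were *Gm9843* (r = 0.974) and *Msn* (0.967), those most like *Nfkbiz* were *Zfp36* (0.966) and *Mcl1* (0.960), and those most like *Rel* were *Arl5b* (0.971) and *Pacsin2* (0.966). For *Tnfaip3* they were *Vopp1* (0.920) and *Dmd* (0.919), and for *Nfkbie* *Hfe* (0.914) and *Rabl6* (0.909). *Nfkb1* was most like *Ptger1* (0.904) and *Atp6v1f* (0.871), *Nfkb2* like *Gm16286* (0.915) and *Gm7964* (0.849), and *Rela* like *Tubb4b-ps1* (0.847) and *Pi16* (0.842). *Relb* was most like *Pum2* (0.886) and *9030617O03Rik* (0.880), and *Nfkbib* like *Scoc* (0.896) and *Tmem63b* (0.892). These were the highest of 13856 candidates, and groups share library-number ranges.

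The pathway above and below the members was read from lists, to be set beside the shares of all features past 2-fold higher and lower in old. These were 13.9% and 11.5% in MSC-L, 8.65% and 11.1% in MSC-S, 26.4% and 18.4% in OPr, 24.7% and 19.8% in mOPr, 9.33% and 11.7% in AEC, and 13.1% and 7.56% in SEC. Where a list's share is near these, its count is not a result about the list.

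Receptors of the IL-1, TNF and Toll-like families passed the filter for 7 of 9 genes in OPr, of which 5 were past 2-fold higher in old and 0 lower, beside 26.4% and 18.4% of all features. Their median was 1.05, beside 0.22 over all features. Without clusters M1 and M2 this was lost, with 3 higher and 2 lower of 7 in OPr (median -0.48), beside 23.7% and 28.1% of features, and 0 and 4 of 7 in mOPr (median -1.84), beside 21.8% and 32.6%. Each of the 3 higher receptors in OPr, and each of the 4 higher adaptors and kinases given below, had at least 54.3% of its old counts in 1 cell. In AEC 1 receptor was higher and 4 lower of 9 (median -0.28), beside 9.33% and 11.7%. The others had 3 higher and 1 lower of 7 in mOPr (median 0.80), 1 higher and 1 lower of 7 in MSC-L (median -0.35), 0 higher and 0 lower of 7 in MSC-S (median 0.26) and 1 higher and 1 lower of 9 in SEC (median 0.15).

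*Il1r1*, the signaling receptor of IL-1, stood at 83.8 CPM in young and 171 in old OPr (1.02, with 1.14 in range 1 and 0.95 in range 2) and at 82.2 and 169 CPM in mOPr (1.03, with 1.59 and 0.63). It stood at 348 and 320 CPM in MSC-L. Without the cells of clusters M1 and M2 its ratio was -0.48 in OPr and -1.84 in mOPr. In AEC *Il1r1* stood at 60.6 and 23.7 CPM (-1.32, with -2.56, -0.53 and -0.54 in ranges 1, 2 and 3).

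Of the adaptors and kinases, those past 2-fold were 1 higher and 1 lower of 16 in MSC-L (median -0.20), 1 higher and 1 lower of 16 in MSC-S (median 0.00) and 3 higher and 1 lower of 16 in OPr (median 0.18). They were 5 higher and 4 lower of 15 in mOPr (median 0.13), 0 higher and 0 lower of 16 in AEC (median 0.05) and 0 higher and 2 lower of 16 in SEC (median 0.05), where the shares in mOPr of all features were 24.7% and 19.8%. Of the 3 genes of the IκB kinase complex they were 0 higher and 0 lower of 3 in MSC-L (median 0.59), 1 higher and 1 lower of 3 in MSC-S (median 0.55) and 0 higher and 0 lower of 3 in OPr (median 0.63). In the other populations they were 0 higher and 1 lower of 3 in mOPr (median 0.38), 0 higher and 1 lower of 3 in AEC (median -0.19) and 0 higher and 0 lower of 3 in SEC (median 0.37), too few genes to set beside a share. Without M1 and M2 the adaptors and kinases were 4 higher and 2 lower of 16 in OPr (median 0.54), beside 23.7% and 28.1% of features, and 3 and 3 of 13 in mOPr (median -0.07), beside 21.8% and 32.6%, and the kinase complex 1 and 0 of 3 (median -0.82) and 2 and 1 of 3 (median 1.05). *Ikbkb* had a ratio of 1.08 in MSC-S (1.42 in range 1 and 0.93 in range 2) and *Ikbkg* of -1.51 (-0.55 and -2.34).

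Of the other feedback and IκB-like genes, those past 2-fold were 1 higher and 1 lower of 7 in MSC-L (median 0.50), 3 higher and 0 lower of 8 in MSC-S (median 0.92) and 2 higher and 0 lower of 7 in OPr (median 0.69), beside 8.65% higher in MSC-S and 26.4% in OPr among all features. They were 2 higher and 3 lower of 7 in mOPr (median 0.17), 0 higher and 0 lower of 8 in AEC (median -0.32) and 1 higher and 0 lower of 8 in SEC (median 0.08). Without M1 and M2 they were 4 higher and 0 lower of 7 in OPr (median 1.18), beside 23.7% and 28.1% of features, and 0 and 4 of 7 in mOPr (median -1.93), beside 21.8% and 32.6%. In 1 of 11 old OPr cells lay 68.3% of the *Bcl3*, 86.0% of the *Irak3* and 51.7% of the *Zc3h12a* counts. The 4 lower in mOPr each had between 68.6% (*Tnip1*) and 100% (*Tnip2*) of their old counts in 1 of 12 cells. *Bcl3*, which encodes an IκB-like coactivator, stood at 16.6 and 88.9 CPM in OPr (2.35, with 0.72 in range 1 and 2.95 in range 2).

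Target genes had a median of 1.68 in OPr, with 8 past 2-fold higher and 1 lower of 13, beside 26.4% and 18.4% of all features, and 0.95 in mOPr, with 7 and 0 of 15, beside 24.7% and 19.8%. Medians of the targets were 0.41 in MSC-L (4 higher and 3 lower of 14), 0.17 in MSC-S (4 and 0 of 16), 0.01 in AEC (1 and 2 of 15) and -0.16 in SEC (1 and 0 of 12). Without M1 and M2 the targets had 5 higher and 2 lower of 12 in OPr (median 0.73), beside 23.7% and 28.1% of features, and 7 and 0 of 13 in mOPr (median 1.35), beside 21.8% and 32.6%. All 5 higher targets in OPr had most of their counts in 1 of 11 old cells, *Cxcl1* 80.1%, *Lif* 99.4%, *Vcam1* 98.7%, *Birc3* 68.4% and *Irf1* 83.8%. All 5 were also among the 8 higher over all kept OPr, so that the count of 8 too rests partly on single old cells. In mOPr 2 of the 7 had most in 1 of 12, *Ccl7* 66.4% and *Il6* 85.3%. *Cxcl1*, *Il6*, *Vcam1* and *Irf1* were among the genes by which clusters were drawn. Leaving out clusters is therefore no independent check on them. *Il6* stood at 32.5 and 307 CPM in MSC-S (3.20, with 4.33 in range 1 and 2.80 in range 2).

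The adhesion gene *Vcam1* stood at 297 CPM in young and 957 in old OPr (1.68, with 0.73 in range 1 and 8.67 in range 2) and at 54.4 and 784 CPM in mOPr (3.82, with 5.42 and 3.02), where 1 young cell held 81.6% of the young counts. In MSC-L it stood at 1843 and 1937 CPM. Without clusters M1 and M2, which *Vcam1* itself helped to draw, the old level was 1.52 CPM in mOPr, and in OPr 1 of 11 old cells held 98.7% of the counts. The cytokine gene *Csf1* stood at 99.1 and 796 CPM in OPr (2.99, with 2.09 and 5.31), at 67.5 and 459 CPM in mOPr (2.75, with 4.23 and 2.07) and at 969 and 943 CPM in MSC-L. Without M1 and M2 its ratio was -0.13 in OPr and 1.56 in mOPr.

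Promoters were read from RefSeq (GRCm38.p6), from 250 bases before to 50 after a gene's start, for 7 of the 10 members. *Nfkb1*, *Relb* and *Nfkbiz* had no entry. The κB motif GGGRNWYYCC was searched on both strands. In it R is A or G, W is A or T, Y is C or T and N is any base. It was found in all 3 promoters of *Nfkb2*, 1 of the 2 of *Tnfaip3* and the 1 promoter each of *Rel*, *Nfkbia* and *Nfkbie*. The 1 promoter each of *Rela* and *Nfkbib* had 0 matches. Counted by promoter, 4.51% of 32851 promoters of the same length had a match. Windows of 60 bases are shown for the inhibitors with a match, with the matched bases in capitals. The window of *Nfkbia* is chr12:55492632-55492691 on the minus strand, that of *Nfkbie* chr17:45555579-45555638 on the plus strand, and those of *Tnfaip3* chr10:19015491-19015550 and chr10:19015378-19015437 on the minus strand.
Nfkbia: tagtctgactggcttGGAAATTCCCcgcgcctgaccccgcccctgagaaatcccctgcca
Nfkbie: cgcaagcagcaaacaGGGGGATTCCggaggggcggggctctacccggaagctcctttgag
Tnfaip3, distal: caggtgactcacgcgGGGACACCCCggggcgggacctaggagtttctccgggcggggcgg
Tnfaip3, proximal: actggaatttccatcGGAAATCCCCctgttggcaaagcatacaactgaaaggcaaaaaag

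The matches begin 29 bases before the RefSeq start of *Nfkbia*, 106 before that of *Nfkbie*, and 125 and 12 before 1 of those of *Tnfaip3*. A match is a description of these bases and not a measured site. By GENCODE M21 on GRCm38, *Nfkbia* (ENSMUSG00000021025.8) lies on chromosome 12 from 55489410 to 55492647, *Nfkbie* (ENSMUSG00000023947.8) on chromosome 17 from 45555703 to 45563169 and *Tnfaip3* (ENSMUSG00000019850.11) on chromosome 10 from 19000910 to 19015657. RefSeq has 2 starts for *Tnfaip3*. The start at 19015410, used above, lies 247 bases inside that gene, so that both windows lie inside the GENCODE gene. The promoter of the other, at 19011963, has 0 matches, and which start these cells use was not tested. Counting ignored strand, and *Nfkb2* shares 11.6% of its exon bases with *AC114539.1* and 6.52% with *Psd*, and *Nfkbib* 14.5% with *Ccer2* and 1.94% with *Sirt2*, all on the opposite strand. Reads of these pairs cannot be told apart, and the levels of *Nfkb2* and *Nfkbib* are uncertain to that extent.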

How the data were processed

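The deposited counts were made by the authors, who mapped reads with GSNAP (2015-09-29) to GRCm38.p4, used HTSeq, blind to strand, for the counts of each gene and removed cells of low quality. Of 46078 gene entries, 270 repeated a symbol and were summed with it, leaving 45771 nuclear and 37 mitochondrial genes. Population and age came from the labels, clusters from the study's supplement. CPM were taken from nuclear counts summed over the cells of a group. Ratios used a pseudocount of 1 CPM, and background features had at least 100 counts over both groups and a count in at least 5 cells. Poisson, conditional binomial and Clopper-Pearson intervals were exact. Labels give no mouse for any cell, and hence no test was made.

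Members and lists were chosen with earlier results of these data known. Named genes were the 10 members, list genes past 2-fold between ages in 1 population with the same direction in every library range, and the 2 genes most like each member. Not every such gene is reported. Alternatives were no drop of cells, a cutoff of 100 CPM, a drop by hematopoietic markers, means of cell CPM, median-of-ratios size factors, thinning to 100000 counts, a pseudocount of 0.1 CPM, no filter, single ranges, identity groups and leaving out the highest cell. Doublets were not called. Steps were tested on simulated data. Versions were matplotlib 3.10.9, scipy 1.17.1, pandas 2.3.3 and numpy 2.4.6 under Python 3.11.15.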

Additional observations from a re-analysis of the deposited data

Results flagged for a closer look

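Some members had one direction with age in every library range of one population and the opposite in every range of another. In OPr the log2 ratio of old to young was 2.44 for *Nfkbie*, which had 1.76 in mOPr and -0.88 in MSC-L. *Nfkbib* had 1.76 in OPr and -0.79 in MSC-L. *Rel* had 0.96 in MSC-L and -1.52 in OPr, and *Nfkb2* had 1.07 in OPr, 0.78 in mOPr and -0.52 in AEC. Old OPr of range 1 held 1 count of *Rel*, and with the cells dropped for *Il1b* put back its ratio in OPr was 1.30. When the highest cell of each age was left out, *Nfkb2* had 0.33 in OPr. Without the cells of clusters M1 and M2, an alternative chosen after seeing the data, *Nfkbie* had -2.03 in mOPr and *Nfkbib* 0.06 in OPr. The differences between populations were not tested, and the share of all features with such opposite directions was not computed.

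The 8 cells left out for *Il1b* carried between 11 and 14 of the 15 hematopoietic markers, with *S100a9* at 16118 CPM and *Elane* at 0. In them 8 members stood above their level in each of the 12 kept groups. The share of all features that did so was not computed, so that this count is not a result about the members. *Nfkb1* stood at 678 CPM, *Nfkb2* at 502 CPM, *Rela* at 413 CPM, *Relb* at 533 CPM and *Rel* at 972 CPM. *Nfkbie* stood at 920 CPM, *Nfkbiz* at 1056 CPM and *Tnfaip3* at 253 CPM. Single cells weigh in this. Without the dropped cell highest in the gene, 6 members in place of 8 stood above each kept group. *Tnfaip3* then stood at 42.6 CPM, since 1 cell held 86.7% of its counts, and *Nfkbiz* at 777.5 CPM, below old AEC. The median dropped cell had 7.10 CPM of *Tnfaip3*. The highest kept groups had 75.5 CPM of *Relb*, 165 CPM of *Rel* and 84.4 CPM of *Nfkbie*. *Nfkbia*, at 590 CPM, and *Nfkbib*, at 7.09 CPM, lay within the kept groups or below them.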

How the results depend on the processing

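No paired analysis was possible because the numbers in the titles count cells and no test was made. Medians were taken as kept while they lay between the second lowest and the second highest member, and counts of members past 2-fold while they were within 1.5 times the main count. By this wide tolerance 203 values were kept and 34 moved. Of the other values, for single genes, 610 were kept within their 95% interval, 415 moved and 5, of ratios past 2-fold, changed sign. The kept and moved ones include 61 more changes of sign, of smaller ratios, and of all 66 changes 21 were in range 1, 11 in range 2 and 10 in identity groups. The cause was not tested. Kept by it were medians as far apart as 1.29 in range 1 and -0.30 in range 2 for mOPr (main 0.12). In OPr they were 0.34 without the highest cell of each age and 1.11 in range 2, against 0.90. Range 2 of OPr had 5 members higher and 1 lower, beside 30.5% and 18.5% of all features. Over all kept OPr these were 4 and 1, beside 26.4% and 18.4%. Over library range 1 the median was -0.84 in MSC-S and 0.72 in AEC, and over range 3 it was 0.65 in AEC. Counts past 2-fold, higher and lower in old, follow with the share of all features there in brackets. In range 1, MSC-L had 3 lower (17.6%), MSC-S 0 higher and 5 lower (16.1% and 18.2%), OPr 2 and 2 (26.3% and 31.7%), mOPr 6 and 1 (23% and 26.6%), and AEC 1 and 2 (16.3% and 23.4%). In range 2, MSC-L had 2 higher (17.2%), mOPr 1 higher and 3 lower (30.7% and 23%), and AEC 1 lower (14.7%). One of the 2 in MSC-L was *Tnfaip3*, with 5 young and 58 old counts there. The member lower in range 1 of mOPr was *Nfkbib*, with 71 young and 14 old counts. Both lay under the 100 counts asked of the features behind the shares. In range 3, AEC had 4 higher (17.6%). In MSC-L, means of cell CPM gave 2 lower (12.7%), thinning 1 lower (12.8%), a pseudocount of 0.1 CPM 1 higher (15.2%) and the identity group 2 higher (13.7%). Means of cell CPM gave 0 higher in MSC-S (8.72%). In mOPr, size factors gave 1 lower (22.2%). Leaving out the highest cell of each age also moved the counts in MSC-L and mOPr. No share of all features was computed there, so those counts are not given. In OPr, without the drop by *Il1b*, 8 were higher and 0 lower (25.6% and 19.6%). In SEC, the drop by 7 hematopoietic markers gave 0 higher (12.2%), and one by 3 markers, chosen after seeing the data, 0 higher and 1 lower (11.9% and 8.05%). Without clusters M1 and M2, chosen after seeing the data, OPr had 6 higher and 0 lower (23.7% and 28.1%) and mOPr 1 higher and 1 lower (21.8% and 32.6%). Of 9 ratios past 2-fold, 5 changed sign under an alternative. They include *Nfkbie* in MSC-S (-1.07 in range 1), *Rel* in OPr (1.30 without the drop) and *Nfkbie* in mOPr (-2.03 without M1 and M2). The others were *Tnfaip3* in OPr (-0.21 in range 1, from 2 counts) and in mOPr (-0.23 in range 2, from 14 young and 11 old counts). Of 51 smaller ratios 38 changed sign under at least 1 alternative, such as *Nfkb1* in OPr (-0.21 without the highest cell), *Nfkbiz* in OPr (-1.47 in range 1) and *Rel* in MSC-S (-2.56 in range 1). A cutoff of 100 CPM dropped the same 8 cells. Size factors moved the median of all features in OPr from 0.22 to -0.02. For mOPr no identity group exists. Leaving out cluster M9 in MSC-S was also chosen after seeing the data. With 21 old OPr and 26 mOPr of each age, 1 cell can set a group's level.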

Other observations

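In the 10 cells of cluster M9, *Nfkbia* stood at 2014.9 CPM and *Tnfaip3* at 317 CPM, against 873 and 47.2 CPM in the 49 other old MSC-S. *Nfkb2* and *Nfkbie* went the other way, at 30.6 against 109 CPM and 1.07 against 16.4 CPM. One of the 10 cells held 47.8% of the *Tnfaip3* counts and the median cell stood at 95.1 CPM. Without the highest cell M9 stood at 184 CPM of *Tnfaip3*, and likewise at 1891 CPM of *Nfkbia*. Without M9, an alternative chosen after seeing the data, the ratio of *Tnfaip3* between ages in MSC-S was -0.72 in log2. Its sign turns on 1 young cell, which held 53.1% of the young counts. Without that cell the young level was 37.4 CPM and the ratio 0.33. When the highest cell of each age was left out, the levels were 37.4 and 38.3 CPM (0.03). No test was made.

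Each population and age is 1 sample of cells from several mice that the labels do not tell apart, so that differences between mice, sorting days and ages cannot be told apart. Library ranges are read from cell numbers, and what they stand for is not stated. Reads were amplified without molecular identifiers, so that counting intervals are too narrow. Transcripts of inhibitors do not measure protein, localization or NF-κB activity.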
